A study of Mus musculus with 13 samples.

Results

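The genes described here are the core of cytosolic DNA sensing: the sensors *Cgas*, *Zbp1* and *Aim2*, the adaptor *Sting1*, the nuclease genes *Trex1* and *Samhd1*, the kinases *Tbk1* and *Ikbke*, and the transcription factors *Irf3* and *Irf7*. They were chosen by name, as 10 symbols matched to Ensembl identifiers. Of these, 9 of 33618 genes with counts were matched, and all 9 were among the 16753 genes that passed the filter on low counts. *Trex1* was not analysed here.

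Whole parametrial white adipose tissue (pmWAT) came from female mice, 7 of them *Lmna* fl/fl and 6 *Lmna* iADKO, with 1 library per mouse. Both genotypes carried loxP-flanked *Lmna* alleles, and both received tamoxifen at 50 mg/kg for 5 days at 12 to 14 weeks of age, 2 weeks before dissection. The iADKO mice also carried tamoxifen-inducible *Adipoq*-CreERT2, which is driven by an adipocyte promoter, and the fl/fl mice did not. The effects of CreERT2 and of *Lmna* deletion therefore cannot be told apart. In whole tissue, more cells of a type and more RNA per cell cannot be told apart either, for any gene below.

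DNA is normally kept in the nucleus and mitochondria, and DNA in the cytosol is read as a sign of infection or damage. The enzyme cGAS binds it and makes the messenger cGAMP, which activates STING on the endoplasmic reticulum. STING then recruits the kinase TBK1, which phosphorylates IRF3, and IRF3 and IRF7 switch on type I interferon genes. TREX1 and SAMHD1 limit the signal by degrading DNA or the nucleotides and nucleic acids that feed it, while ZBP1 and AIM2 lead from nucleic acids to cell death and inflammasome pathways. In adipose tissue, both adipocytes and macrophages can express parts of this machinery.

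Between 18854223 and 19776491 reads per library were counted on genes. *Lmna* was at 84.7 ± 7.51 CPM (TMM-normalized counts scaled to a common library size) under the fl/fl label and 96.7 ± 11.5 CPM under the iADKO label, where values after ± are SDs over 7 and 6 libraries throughout. Its level under the iADKO label was thus not the lower of the 2 (log2 fold change 0.19, adjusted p = 0.0785 by edgeR's quasi-likelihood test). The counts cover the whole gene in whole tissue, not the floxed exons in adipocytes alone, so every direction below rests on the labels. All 6 adipocyte markers listed were lower under the iADKO label, with *Adipoq* at 2140 ± 295 and 1280 ± 263 CPM. In each genotype, 1 library lay nearest the other genotype. The library labelled fl/fl replicate 5 had a summed level of 9 macrophage markers of 5930 CPM, where the median of its group was 2760 CPM. The one labelled iADKO replicate 6 had 3590 CPM, the lowest of its group. Adipocyte markers crossed in the same 2 libraries. Their summed level was 6130 CPM in fl/fl replicate 5, the lowest of its group (median 8550 CPM). In iADKO replicate 6 it was 6360 CPM, the highest of its group (median 4620 CPM). Calls of the 9 genes, and counts over the lists of pathway genes, are given with and without these libraries where they differ.

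Base composition and motifs of the promoters were read from RefSeq windows of GRCm38.p6, 250 bases before to 50 bases after each start site, which 7 of the 9 genes had. The stretches below are the 80 bases just before the start of the 3 genes that rose and had a window, with *Cgas* and *Irf7* for contrast. Capitals mark each CG pair.
Samhd1: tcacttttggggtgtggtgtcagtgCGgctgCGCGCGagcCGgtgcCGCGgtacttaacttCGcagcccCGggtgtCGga
Tbk1: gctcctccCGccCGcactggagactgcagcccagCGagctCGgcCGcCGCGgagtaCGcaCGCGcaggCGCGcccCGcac
Aim2: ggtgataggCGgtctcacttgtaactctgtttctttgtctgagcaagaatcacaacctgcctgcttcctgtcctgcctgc
Cgas: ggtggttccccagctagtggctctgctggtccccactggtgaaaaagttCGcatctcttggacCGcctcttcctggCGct
Irf7: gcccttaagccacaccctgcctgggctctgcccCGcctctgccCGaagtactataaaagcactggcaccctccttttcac
They lie at chr2:157135097-157135176 (minus strand), chr10:121586795-121586874 (minus), chr1:173420524-173420603 (plus), chr9:78443238-78443317 (minus) and chr7:141266425-141266504 (minus). The promoters differed widely. Over the 250 bases upstream, *Tbk1* held 31 CG pairs and *Samhd1* 26, against a median of 6 over 32851 promoters. *Irf3* held 16 and *Cgas* 9. *Aim2* and *Ikbke* held 4 each, and *Irf7* held 3.

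Genes induced by interferon often carry an interferon-stimulated response element, here searched on both strands by its core GAAANNGAA. None of the 7 genes held that core in the 250 bases upstream, where 8.18% of all genes and 7.13% of all promoters did. A share that low cannot be told from none in 7 genes. The related gamma-activated motif TTCNNNGAA can overlap the core at its GAA end. It was in 8.13% of all genes, in 7.02% of all promoters and in 1 of the 7 genes, *Samhd1*. In the other genes of the pathway, the core was in 9 of 16 interferon-stimulated targets with a window and in 9 of 11 PYHIN genes, the family to which *Aim2* belongs. Examples are shown from genes that rose (*Cxcl10*, *Oas3*, *Bst2*, *Ifi211*) and from one that did not pass the test (*Isg15*), with capitals for the motif.
Samhd1: acaccaccctTTCGGAGAAacacaagggc
Cxcl10: tcacgctttgGAAAGTGAAacttacctca
Oas3: gcagggaggaGAAAACGAAagtgaaggga
Bst2: ggcattccagGAAAATGAAactgaaaggc
Ifi211: caaagccaggGAAATTGAAagctatgaac
Isg15: gtaggaaaagGAAACCGAAacagaaaata
These are chr2:157135313-157135341, chr5:92349084-92349112, chr5:120777716-120777744, chr8:71537584-71537612, chr1:173913065-173913093 and chr4:156200872-156200900, all on the minus strand. A match is a match of letters only.

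Of the 9 genes, 4 were higher in the libraries labelled iADKO and none was lower at an adjusted p under 0.05: *Zbp1*, *Aim2*, *Samhd1* and *Tbk1*. Over all genes tested, 14.1% were higher and 16.3% lower. The median log2 fold change was 0.29 over the 9 genes and 0.03 over all genes tested. In no gene were all iADKO libraries above all fl/fl libraries, which held for 2.71% of all genes tested. The share of all genes with every iADKO library below every fl/fl library is not given here. Downward separations named below therefore cannot be set against it. Differences below are log2 fold changes, iADKO minus fl/fl, from edgeR's quasi-likelihood test with Benjamini-Hochberg adjustment over all genes tested.

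**Figure D1:**
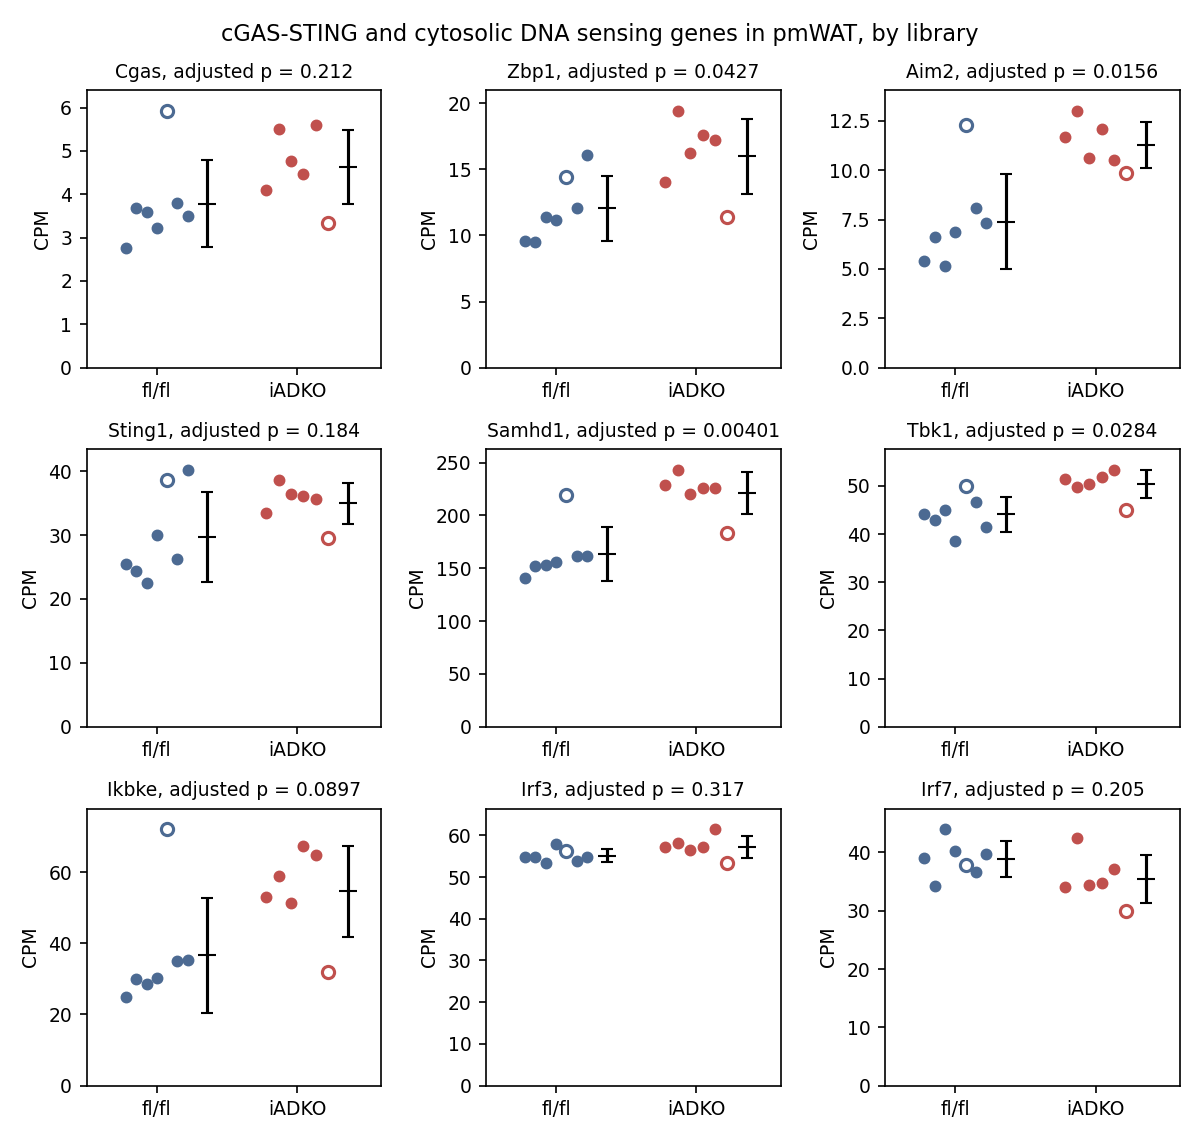
Each panel plots 1 gene in TMM-normalized CPM on an axis from 0, with 1 point per library, 7 fl/fl in blue and 6 iADKO in red. Open circles are fl/fl replicate 5 and iADKO replicate 6, and black bars are the mean ± SD. In *Aim2*, *Samhd1* and *Ikbke* the open fl/fl circle lies among or above the iADKO libraries, while in *Irf3* and *Irf7* it lies within its own group.

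The sensors come first. *Aim2* (chr1:173178445-173293930, plus strand, GRCm39) binds double-stranded DNA and assembles an inflammasome. Its level was 5.14 to 12.3 CPM (median 6.87) in fl/fl and 9.87 to 13 CPM (median 11.2) in iADKO. With means of 7.4 ± 2.4 CPM in fl/fl and 11.3 ± 1.18 CPM in iADKO, the log2 fold change was 0.61 (SE 0.17, adjusted p = 0.0156). Of the fl/fl libraries, 6 lay below the lowest iADKO library, and replicate 5 at 12.3 CPM lay above all but 1 of them. Without it the log2 fold change was 0.78.

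*Zbp1* (chr2:173033815-173060724, minus strand) encodes a sensor of Z-form nucleic acids that engages RIPK3. It was at 9.5 to 16.1 CPM (median 11.4) in fl/fl and 11.4 to 19.4 CPM (median 16.7) in iADKO, so the groups overlapped. Means of 12.1 ± 2.43 CPM in fl/fl and 16 ± 2.83 CPM in iADKO gave a log2 fold change of 0.40 (SE 0.14, adjusted p = 0.0427). This call was near the threshold. It was kept in 4 of 13 fits that each left out 1 mouse, with adjusted p-values from 0.0121 to 0.0994.

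*Cgas* (chr9:78337802-78350535, minus strand) encodes the cGAMP synthase itself. It was the gene with the fewest reads, 1067 over the 13 libraries. Its level ranged from 2.76 to 5.92 CPM (median 3.58) in fl/fl and from 3.34 to 5.59 CPM (median 4.61) in iADKO. The highest library of all was fl/fl replicate 5. The means of 3.78 ± 1.01 and 4.62 ± 0.86 CPM differed by 0.29 on the log2 scale (95% interval -0.08 to 0.65, adjusted p = 0.212), which did not pass the test. Without fl/fl replicate 5 it was called, at 0.44 (adjusted p = 0.0225). An lncRNA on the opposite strand, Gm68924, covers 34.4% of its exon bases, and the strand setting of the counting is not given in the sources used here.

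The adaptor *Sting1* (chromosome 18, minus strand) passes the cGAMP signal on from the endoplasmic reticulum. Its level was 22.5 to 40.2 CPM (median 26.3) in fl/fl and 29.5 to 38.7 CPM (median 35.8) in iADKO. Below the lowest iADKO library lay 4 of 7 fl/fl libraries. Replicates 4, 5 and 7 of fl/fl, at 30, 38.6 and 40.2 CPM, lay within or above the range of iADKO. The log2 fold change was 0.24 (95% interval -0.04 to 0.52, adjusted p = 0.184) and did not pass the test. Without fl/fl replicate 7 it was called, at 0.33 (adjusted p = 0.0491). The log2 ratio of *Sting1* to *Cgas* within a library was 2.81 ± 0.316 and 2.80 ± 0.145, a difference of -0.01 (exact permutation p = 0.951).

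*Samhd1* (chr2:156939453-156977187, minus strand) encodes a dNTP hydrolase that restrains viral and self nucleic acids, and it showed the lowest adjusted p of the 9 genes. In fl/fl its level was 141 to 219 CPM with a median of 156 CPM, and 6 of 7 libraries were at or below 162 CPM. In iADKO it was 183 to 243 CPM with a median of 226 CPM. Again fl/fl replicate 5 was the exception, at 219 CPM, and 5 of 6 iADKO libraries lay above it. The mean rose from 164 ± 25.4 to 221 ± 20 CPM, by 0.43 on the log2 scale (SE 0.0936, adjusted p = 0.00401). *Samhd1* and *Aim2* passed the test in all 13 fits that left out 1 mouse.

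Of the kinases, *Tbk1* (chr10:121382360-121422848, minus strand), the main kinase for IRF3, was at 38.6 to 50 CPM (median 44.1) in fl/fl and 44.9 to 53.3 CPM (median 50.9) in iADKO. Its means were 44.1 ± 3.65 and 50.3 ± 2.89 CPM, a log2 fold change of 0.19 (SE 0.0598, adjusted p = 0.0284). The change was small, 1.14-fold, and the call was kept in 7 of the 13 fits that left out 1 mouse, with adjusted p-values up to 0.0606.

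*Ikbke* (chr1:131182080-131207346, minus strand) encodes IKK-epsilon, a relative of TBK1 that is itself inducible by inflammatory signals. Its spread was the widest of the 9 genes relative to its mean. In fl/fl, 6 libraries were between 25 and 35.3 CPM and replicate 5 was at 72.1 CPM, the highest of all 13. In iADKO, 5 libraries were between 51.4 and 67.3 CPM and replicate 6 was at 32 CPM. The log2 fold change of 0.58 (SE 0.243, adjusted p = 0.0897) did not pass the test. Leaving out fl/fl replicate 5 gave 0.83 (adjusted p = 0.00117), and leaving out iADKO replicate 6 gave 0.69 (adjusted p = 0.0391). The log2 ratio of *Ikbke* to *Tbk1* was -0.35 ± 0.428 and 0.08 ± 0.308, a difference of 0.43 (exact permutation p = 0.0699, adjusted over 3 ratios p = 0.105).

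Neither transcription factor passed the test. *Irf3* (chr7:44647033-44652272, plus strand), which TBK1 phosphorylates and which is made at a steady level in most cells, was at 53.4 to 57.9 CPM (median 54.8) in fl/fl and 53.3 to 61.5 CPM (median 57.1) in iADKO. This was the narrowest range of the 9 genes relative to the level. The log2 fold change was 0.06 (95% interval -0.03 to 0.14, adjusted p = 0.317). *Irf7* (chr7:140842619-140846398, minus strand), which amplifies the interferon response and is itself an interferon target, was at 34.2 to 44 CPM (median 39) in fl/fl and 29.9 to 42.4 CPM (median 34.6) in iADKO. It was the only one of the 9 genes with a mean below that of fl/fl, at -0.13 (95% interval -0.29 to 0.03, adjusted p = 0.205). The log2 ratio of *Irf7* to *Irf3* was -0.51 ± 0.121 in fl/fl and -0.69 ± 0.126 in iADKO. In 5 of 6 iADKO libraries this ratio was below the lowest fl/fl library. The difference of -0.19 had an exact two-sided permutation p of 0.0204, but an adjusted p of 0.0612 over the 3 ratios.

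**Figure D2:**
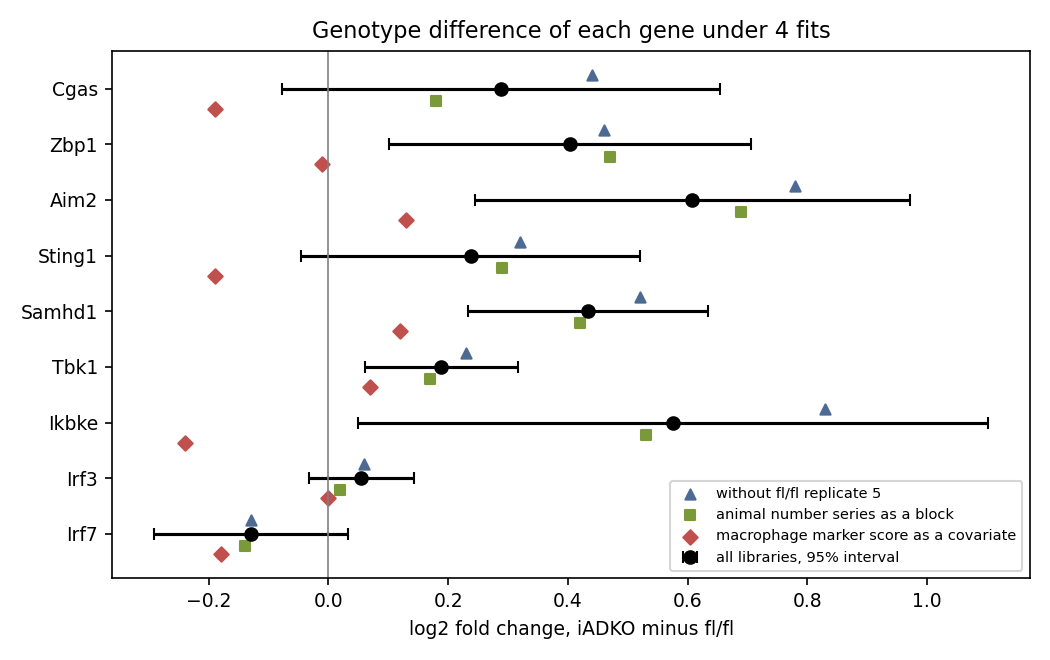
Black points are log2 fold changes (iADKO minus fl/fl) of the 9 genes with 95% intervals. Triangles leave out fl/fl replicate 5, squares take the animal number series as a block, and diamonds take the macrophage marker score as a covariate. With that score in the fit the diamonds lie between -0.24 and 0.13, and leaving out fl/fl replicate 5 gives 0.83 for *Ikbke*.

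Macrophage markers moved with the same libraries. Of 9 macrophage markers, 7 were higher in iADKO and none was lower. *Cd163* (log2 fold change 0.21, adjusted p = 0.326) and *Lyz2* (0.72, adjusted p = 0.103) did not pass the test. The summed level of the 9 markers was 2340 to 5930 CPM in fl/fl and 3590 to 6200 CPM in iADKO. *Cd68*, a lysosomal protein of macrophages, was at 129 ± 67.2 and 268 ± 51.7 CPM (log2 fold change 1.06, adjusted p = 0.0118). Among other immune markers, 4 of 7 for dendritic cells, 3 of 6 for T cells, 2 of 5 for NK cells, 1 of 4 for B cells and 1 of 5 for neutrophils were higher, and none was lower. Of 4 endothelial markers, 2 were lower, *Kdr* (-0.48, adjusted p = 0.00151) and *Cdh5* (-0.29, adjusted p = 0.014), and none was higher. With the mean log2 level of the 9 macrophage markers as a covariate, none of the 9 DNA sensing genes was called, and none had an unadjusted p under 0.05. *Samhd1* was then at 0.12 (adjusted p = 0.558), *Aim2* at 0.13 (adjusted p = 0.796) and *Tbk1* at 0.07 (adjusted p = 0.748). *Zbp1* was at -0.01, *Cgas* and *Sting1* at -0.19 each, and *Ikbke* at -0.24. The score itself differed between genotypes, and in that fit 240 of all genes were called in place of 5104. Adipocyte markers moved with the same libraries in the opposite direction, and no fit took them as a covariate. The part of macrophages, of adipocytes or of endothelial cells in the differences was not tested.

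**Figure D3:**
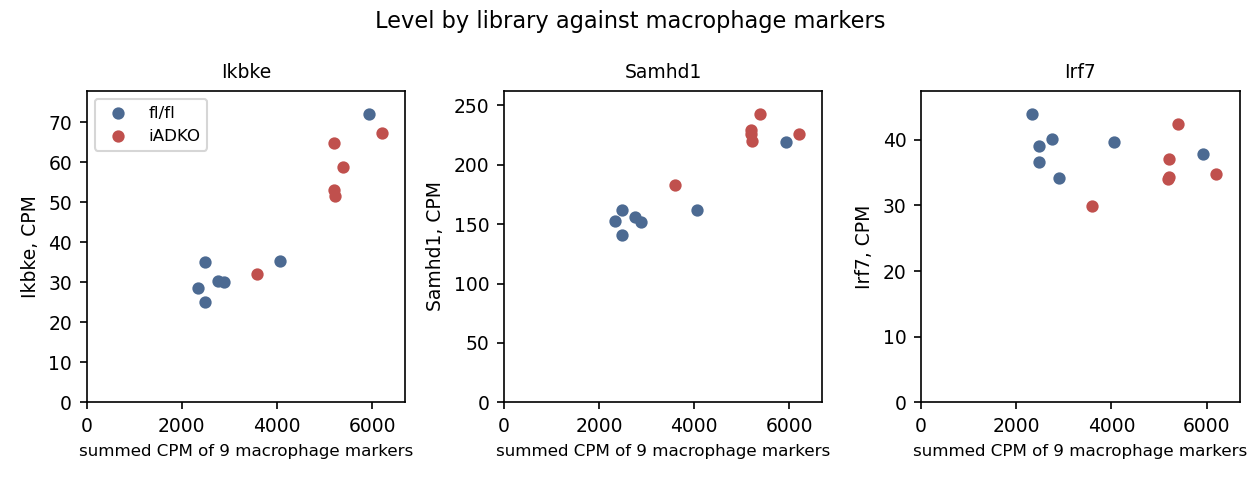
The x axis is the summed CPM of 9 macrophage markers in each of 13 libraries, and the y axis is the CPM of *Ikbke*, *Samhd1* or *Irf7*, both from 0. For *Ikbke*, fl/fl replicate 5 (5930 CPM of markers, 72.1 CPM) sits with the iADKO libraries and iADKO replicate 6 (3590 CPM of markers, 32 CPM) sits with the fl/fl libraries.

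Animal numbers in the library names fall into 4 series, of which 2 hold both genotypes, and the labels do not say what a series is. In the series 722 to 727, with 2 libraries of each genotype including fl/fl replicate 5 and iADKO replicate 6, 4 of 9 genes had the higher mean in iADKO, with log2 differences from -0.27 to 0.25 (median -0.01). In the series 747 to 765, with 3 fl/fl and 2 iADKO libraries, 8 of 9 genes were higher in iADKO with no overlap (30.5% of all genes tested did so in this series), with a median of 0.58 and a highest value of 1.1 for *Aim2*. Only *Irf7*, at -0.03, was not. With the series as a block over all libraries, *Samhd1* alone was called, at 0.42 and just under the threshold (adjusted p = 0.0499). *Aim2* was at 0.69 (adjusted p = 0.0509), *Zbp1* at 0.47 (adjusted p = 0.0899) and *Tbk1* at 0.17 (adjusted p = 0.177). With fl/fl replicate 5 and iADKO replicate 6 both left out, a choice made after their values were seen, 7 of 9 genes were called, all except *Irf3* and *Irf7*. Calls rose over all genes too, with 3282 of 16769 genes tested higher and 3910 lower in that fit.

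Levels between genes were compared per kilobase of the canonical transcript (RPKM, that is CPM per kilobase). *Samhd1* was the highest in both genotypes, at 41.7 ± 6.45 RPKM in fl/fl and 56.3 ± 5.1 RPKM in iADKO, and *Irf3* was next, at 26.6 ± 0.751 and 27.7 ± 1.28 RPKM. Both places held in every library. *Irf7*, *Tbk1*, *Sting1* and *Ikbke* lay close together, with means of 16.2, 14.3, 12.9 and 10.5 RPKM in fl/fl. Their order was not the same in iADKO, where *Tbk1* was at 16.3, *Ikbke* at 15.7, *Sting1* at 15.2 and *Irf7* at 14.8 RPKM, all within the spread between libraries. *Zbp1* (6.04 and 7.99 RPKM), *Aim2* (3.56 and 5.43 RPKM) and *Cgas* (0.923 and 1.13 RPKM) followed in that order in every library. The sensor *Cgas* was thus the least abundant of the 9 in these tissues per kilobase.

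**Figure D4:**
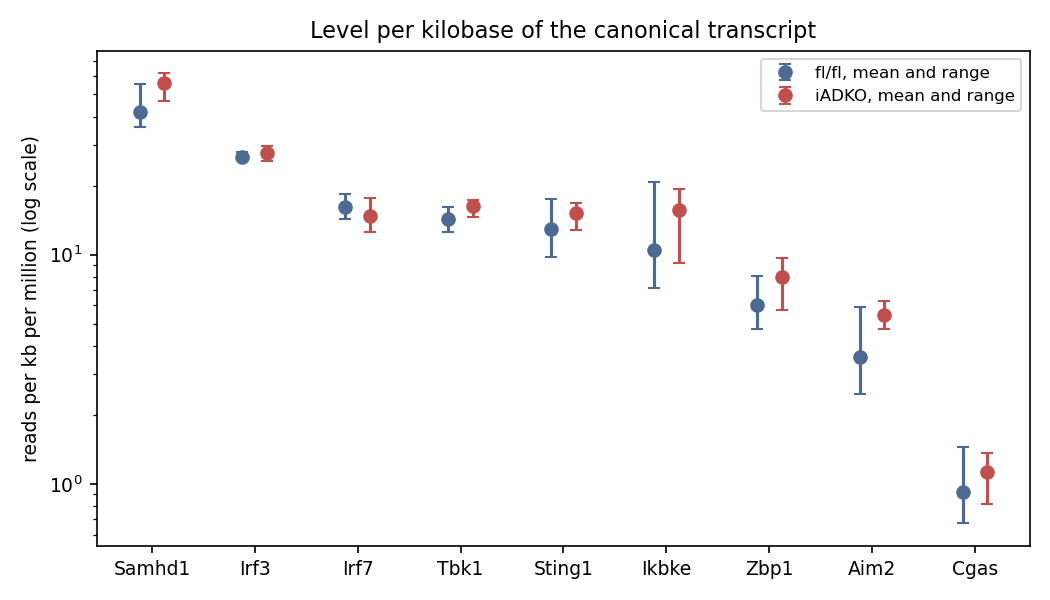
Points are mean levels in RPKM on a log axis, with bars from the lowest to the highest library, for 7 fl/fl (blue) and 6 iADKO (red) libraries. *Samhd1* and *Irf3* stand above the other genes, *Cgas* is the lowest at about 1 RPKM, and *Irf7*, *Tbk1*, *Sting1* and *Ikbke* overlap.

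The genes whose levels followed each member most closely were found by Pearson's r of log2 CPM over the 13 libraries after each genotype's mean was taken out, among 13853 genes. The closest to *Samhd1* were *Bend4* (r = 0.984) and the integrin gene *Itga4* (r = 0.981). *Itga4* was also the closest to *Ikbke* (r = 0.974), followed by *Gm10134* and the purinergic receptor gene *P2rx7* (r = 0.964 each). For *Aim2* it was *Pappa* (r = 0.963) and for *Sting1* it was *Cdk4* (r = 0.973). After *Cdk4* came the leukocyte surface gene *Cd52* and *Olfml3* (r = 0.957 each). *Zbp1* and *Irf7* each had 1 interferon-stimulated gene as the closest, and their next genes were not from the list of such targets. For *Zbp1* it was *Mx1* (r = 0.902), then *Pdgfrl* (r = 0.897) and *Fcgr4* (r = 0.892). For *Irf7* it was *Ifit1* (r = 0.899), then *Hmg20b* (r = 0.851) and *Armc5* (r = 0.846). *Cgas* was closest to *Ncoa3* (r = 0.937), *Tbk1* to *Raph1* (r = 0.928) and *Irf3* to *Pdlim4* (r = 0.895). All libraries share one tissue and fl/fl replicate 5 lies far from its group in several of these genes, so the values are a description only.

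The rest of the pathway was followed in 11 lists with 155 genes, of which 131 were tested. Of these, 33 were higher and 15 lower in iADKO, where 14.1% of all genes tested were higher and 16.3% lower, and the median log2 fold change was 0.12. Without both fl/fl replicate 5 and iADKO replicate 6, 50 were higher and 22 lower. In that fit 3282 of all 16769 genes tested were higher and 3910 lower. Counts per list without both libraries, given below, are to be set beside these. With the series block, 7 were higher (*Lrrfip1*, *Irf5*, *Irf8*, *Rsad2*, *Cxcl10*, *Ccl5* and *Ticam1*) and 6 lower (*Prkdc*, *Xrcc5*, *Steep1*, *Insig1*, *Usp20* and *Mavs*). With the macrophage score, 2 were called, both higher, among them *Cxcl10*. Upstream of the members, the other DNA-binding sensors gave 1 gene higher and 3 lower of 10. *Lrrfip1*, a nucleic acid binding protein, rose by 0.47 (adjusted p = 9.0e-04) with all 6 iADKO libraries above fl/fl. The 3 that fell form the DNA-dependent protein kinase, which joins broken DNA ends. *Prkdc*, its catalytic subunit, was at 38.2 ± 2.83 and 30.2 ± 1.39 CPM (log2 fold change -0.34, adjusted p = 8.27e-04), with all 6 iADKO libraries below fl/fl. Its Ku subunits *Xrcc6* and *Xrcc5* were at -0.28 and -0.23 (adjusted p = 0.0225 and 0.0199). Of 11 tested PYHIN relatives of *Aim2*, 3 were higher and none lower: *Ifi209* at 0.60, *Ifi207* at 0.56 and *Ifi211* at 0.38. These genes are close copies of one another, so reads may have been split between them. Their summed level was highest among fl/fl libraries in replicate 5 (398 CPM) and lowest among iADKO libraries in replicate 6 (292 CPM), and 7 were higher without both. None was called with the series block or the macrophage score.

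Several other nucleases rose besides *Samhd1*. Of 9 tested, 6 were higher and none lower. *Pld3* and *Pld4*, lysosomal exonucleases, were at 0.73 and 0.58 (adjusted p = 0.0132 and 0.0167), and *Dnase2a*, the lysosomal endonuclease that digests engulfed DNA, was at 0.62 (adjusted p = 0.0117). *Dnase1l1* was at 0.43, *Rnaseh2b*, a subunit of the RNase that removes RNA from hybrids, at 0.30, and the RNA editor *Adar* at 0.23. The other subunit genes of that RNase, *Rnaseh2a* (-0.04, adjusted p = 0.751) and *Rnaseh2c* (0.01, adjusted p = 0.944), did not pass the test. Macrophage markers moved with this list. Its summed level was 523 CPM in fl/fl replicate 5, the highest of its group, and 388 CPM in iADKO replicate 6, the lowest of its group. The same 6 genes were called without both of these libraries, and none was with the series block or the macrophage score. Of 10 genes that break down or carry cGAMP, none was higher and 2 were lower, the channel subunits *Lrrc8b* (-0.37, adjusted p = 0.00857) and *Lrrc8d* (-0.28, adjusted p = 0.0368). *Enpp1*, which hydrolyses cGAMP, was at 12 ± 4.82 and 17 ± 2.14 CPM and did not pass the test (0.50, adjusted p = 0.0868). Without both libraries named above, 2 were higher, *Enpp1* and *P2rx7*, and 3 lower.

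Of 20 regulators of STING tested, 1 was higher (*Nlrc3*, 0.47, adjusted p = 0.0485) and 5 were lower. *Insig1*, better known as the sterol-regulated anchor of SREBP processing, was at 396 ± 127 CPM in fl/fl and 145 ± 25.7 CPM in iADKO. It fell by 1.46 on the log2 scale (adjusted p = 6.43e-04), with no overlap between the groups. *Steep1*, which helps STING leave the endoplasmic reticulum, fell by 0.49 (adjusted p = 4.09e-04), with all 6 iADKO libraries below fl/fl. The mitochondrial NLR gene *Nlrx1* was at -0.46, the deubiquitinase gene *Usp20* at -0.37 and the COPII gene *Sar1a* at -0.18. Without both libraries, 3 were higher and 9 lower, and with the series block 3 were lower and none was higher. Of 14 TBK1 adaptors and NF-kB genes, *Nfkbia* (0.31) and *Nfkb1* (0.23) were higher, while the autophagy receptor gene *Optn* (-0.44) and *Map3k7* (-0.12) were lower. All 6 adipocyte markers also fell, by 0.70 (*Pparg*) to 1.11 (*Cidec*) on the log2 scale, and their part in these differences was not tested.

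**Figure D5:**
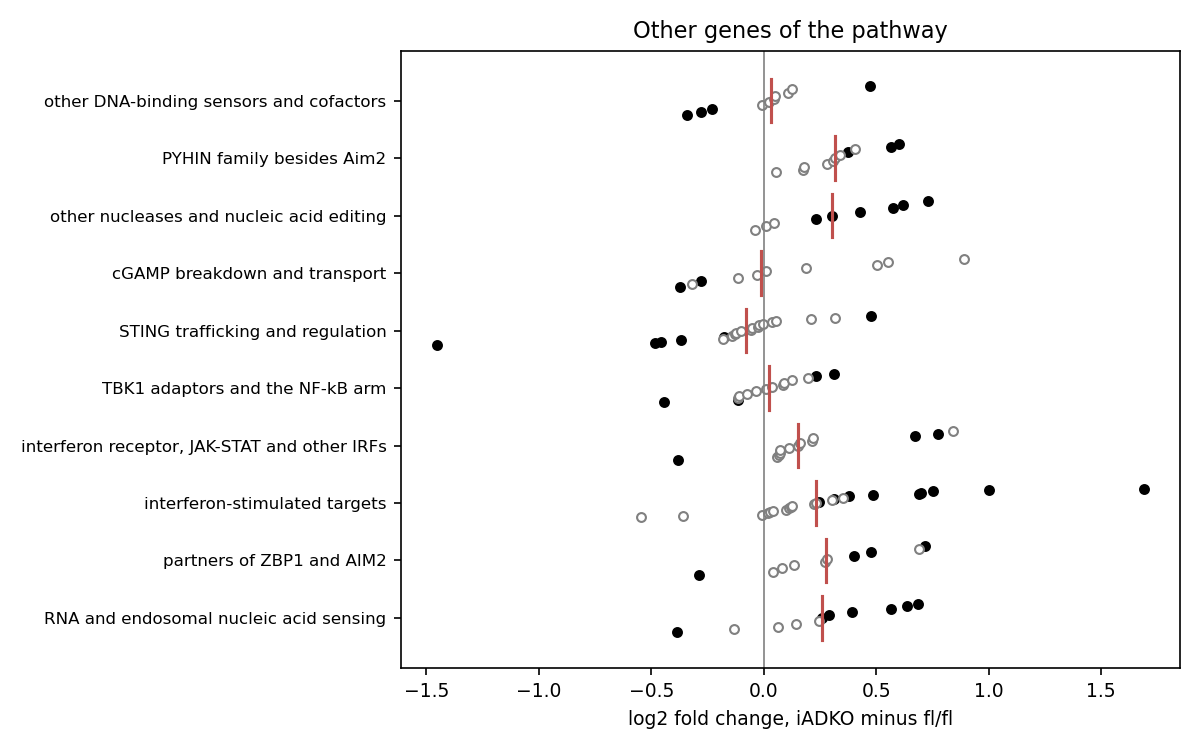
Each row is 1 list of pathway genes, each point the log2 fold change (iADKO minus fl/fl) of 1 tested gene, filled where the adjusted p was under 0.05, and red lines are list medians. Filled points lie on the right for nucleases and interferon-stimulated targets, with *Cxcl10* farthest at 1.69, and mostly on the left for STING regulators, with *Insig1* at -1.46.

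Type I interferon genes themselves were at the edge of detection. Of 17 listed, 4 had counts (*Ifna2*, *Ifna7*, *Ifnab* and *Ifne*), each with 1 read over the 13 libraries, and none could be tested. Values for *Ifnb1* were not analysed here. Of 13 tested genes of the receptor, JAK-STAT and IRF group, 2 were higher, *Irf5* (0.78, adjusted p = 0.00493) and *Irf8* (0.67, adjusted p = 0.00279), both of them factors of myeloid cells. Without both libraries 5 were higher.

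Downstream targets split. Of 23 interferon-stimulated targets, 9 were higher and none was lower, and 14 did not pass the test. *Cxcl10*, a chemokine that draws T cells, had the lowest adjusted p of the 131 pathway genes. It was at 2.88 ± 0.926 CPM in fl/fl and 9.31 ± 1.13 CPM in iADKO, 1.69 higher on the log2 scale (SE 0.189, adjusted p = 1.62e-04), and all 6 iADKO libraries lay above all fl/fl libraries. *Oasl1* was at 1.00, *Mx1* at 0.75, *Oas1a* at 0.70 and *Oas3* at 0.69, all antiviral effectors. Several widely used markers of interferon responses were among the 14. *Isg15*, a ubiquitin-like modifier, was at 6.98 ± 1.34 and 7.59 ± 1.68 CPM (log2 fold change 0.12, adjusted p = 0.583), and *Ifit1* was at 8.08 ± 1.94 and 9.43 ± 2.86 CPM (0.23, adjusted p = 0.42). *Ifit3* was at 0.03 (adjusted p = 0.855). *Ifi27l2a* was at 243 ± 81.5 and 167 ± 40.1 CPM (-0.54, adjusted p = 0.0621). As shown above, *Cxcl10* and *Isg15* both carried the interferon core. Without both libraries, 11 targets were higher and 1 lower (*Ifit3b*). With the series block *Cxcl10*, *Ccl5* and *Rsad2* were called, and with the macrophage score *Cxcl10* alone.

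On the inflammasome and cell death side, 3 of 10 partners of ZBP1 and AIM2 were higher and 1 was lower. *Pycard*, the ASC adaptor that AIM2 recruits, rose by 0.72 (adjusted p = 0.0108), from 11.2 ± 3.68 to 18.5 ± 2.91 CPM. *Ripk3*, the kinase that ZBP1 engages, rose by 0.48 (adjusted p = 0.0109), and the pore-forming *Gsdmd* by 0.40 (adjusted p = 0.0276). *Mlkl*, which acts below RIPK3, was at 12.6 ± 1.39 and 13 ± 0.861 CPM (0.04, adjusted p = 0.71), and *Fadd* was lower (-0.29, adjusted p = 0.00874). Of 11 genes for RNA and endosomal sensing, 6 were higher. These were *Tlr9* (0.69), *Tlr7* (0.64), their chaperone *Unc93b1* (0.57), and *Ticam1*, *Myd88* and *Trim25* with smaller differences. The RNA receptors *Rigi* (0.06, adjusted p = 0.426) and *Ifih1* (-0.13, adjusted p = 0.146) did not pass the test, and their mitochondrial adaptor *Mavs* was lower in all 6 iADKO libraries than in any fl/fl library (-0.39, adjusted p = 6.8e-04). In both of these groups the summed level was highest among fl/fl libraries in replicate 5 (256 and 707 CPM) and lowest among iADKO libraries in replicate 6 (217 and 570 CPM). Without both libraries, 4 partners and 7 RNA and endosomal sensing genes were higher. Only *Ticam1* and *Mavs* of these groups were called with the series block, and none with the macrophage score. The part of macrophages in these differences was not tested.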

How the data were processed

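Bulk RNA-Seq of pmWAT was analyzed for 7 fl/fl and 6 iADKO libraries, grouped by their labels. The authors deposited raw counts per Ensembl gene, without normalization, and log2 values made from them by DESeq2's regularized log. Per the study's methods and processing notes, strand-specific libraries were checked with FastQC 0.12.1 and aligned with STAR 2.7.11a to mm39. The counting tool, its strand setting and the annotation are not given in the sources used here.

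Identifiers were named from GENCODE vM39, where 33184 of 33618 were found. In R 4.3.3, genes that passed filterByExpr were normalized by TMM and tested by the robust quasi-likelihood test of edgeR 4.0.16, with a threshold of 0.05. CPM are TMM-normalized, with a prior count of 2 in log2 CPM. Ratios were formed from CPM + 0.5 and compared by exact two-sided permutation over 1716 splits, whose smallest p is 0.000583. Errors are the spread between mice. Nothing states that mice came from separate litters. Scripts were tested on simulated counts. The genes and lists were chosen with earlier results of these data known. Named genes were all members, up to 4 genes per list and direction with the largest change among those past the threshold, genes needed to say what was near 0, the markers, and the closest genes by r. Other genes, such as *Isg15*, *Enpp1* and *Mlkl*, were chosen after their values were seen.

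Alternatives were the Wald test of DESeq2 1.42.0, its size factors in edgeR, testing all genes with no filter, a minimum of 10 counts per library, the replicate number or animal number series as a block, limma 3.58.1 on the rlog values, TMM without mitochondrial genes, a macrophage score as a covariate, and each mouse left out in turn. The planned ratio of *Trex1* to *Cgas* was not computed. Some single-gene results are left out of the text.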

Additional observations from a re-analysis of the deposited data

Results flagged for a closer look

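The library labelled fl/fl replicate 5 lay far above the other 6 fl/fl libraries in 4 genes by Dixon's test of the gap to the nearest library. It was at 5.92 CPM in *Cgas*, 12.3 CPM in *Aim2*, 219 CPM in *Samhd1* and 72.1 CPM in *Ikbke*. Over the 18 groups tested, 9 genes in 2 genotypes, these were the 4 that passed. Chance gives about 1 in 20 where groups are independent. All 4 came from fl/fl replicate 5, so they are not independent and cannot be set against that rate. The same library had the highest summed macrophage markers of its genotype, at 5930 CPM. The part of these cells in the 4 values was not tested.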

How the results depend on the processing

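*Samhd1* and *Aim2* were called in all fits except those with the macrophage score and, for *Aim2*, the series block. In the series block *Samhd1* (adjusted p = 0.0499) and *Aim2* (adjusted p = 0.0509) lay just on either side of the threshold. *Zbp1* and *Tbk1* sat near the threshold. The limma, size-factor, mitochondrial and count-minimum alternatives moved no call. The interferon genes had too few reads to be tested. The causes of the changes were not tested.

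DESeq2 also called *Ikbke* (0.56, adjusted p = 0.0475). On a single set of simulated counts with 200 of 16753 genes changed 2-fold, 12.2% of the calls by DESeq2 were false, against 0.641% by edgeR. DESeq2 recovered 165 of the 200 and edgeR 155. The simulated spread was the one edgeR had estimated, and in the data 5104 genes were called. These shares therefore cannot be carried over to the call of *Ikbke*. Without a filter, 2 members were called, with *Zbp1* at 0.39 and *Tbk1* at 0.18. With the series block, 1 member, 13 pathway genes in place of 48 and 1986 genes in all were called, with *Zbp1* at 0.47, *Aim2* at 0.69 and *Tbk1* at 0.17. With the macrophage score, 0 members were called (0 at an unadjusted p under 0.05 by edgeR, the one tool run with it), with 2 pathway genes and 240 in all. *Cgas* was at -0.19, *Zbp1* at -0.01, *Sting1* at -0.19 and *Ikbke* at -0.24, all reversed, and *Aim2* was at 0.13, *Samhd1* at 0.12 and *Tbk1* at 0.07.

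With the replicate block and fl/fl replicate 7 left out, 4 members were called. *Sting1* was gained (0.34, adjusted p = 0.0427) and *Tbk1* was lost (0.18, adjusted p = 0.071), and 4833 genes were called in all. The residuals of 3 of 6 same-numbered pairs correlated above 0.1, and 2 of 6 iADKO libraries correlated best with their own number, so the numbers were not taken as a pairing.

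Leaving out each mouse gave 2 to 6 members, 36 to 63 pathway genes and 3998 to 6604 genes called. The log2 fold changes ranged from 0.22 to 0.44 for *Cgas*, 0.34 to 0.49 for *Zbp1*, 0.54 to 0.78 for *Aim2*, 0.18 to 0.33 for *Sting1*, 0.40 to 0.52 for *Samhd1*, 0.16 to 0.23 for *Tbk1*, 0.50 to 0.83 for *Ikbke*, 0.04 to 0.08 for *Irf3* and -0.19 to -0.09 for *Irf7*. The differences in log2 ratio ranged from 0.35 to 0.57 for *Ikbke* to *Tbk1* (0.572 without fl/fl replicate 5, exact permutation p = 0.00866, and 0.54 without iADKO replicate 6, p = 0.0253), from -0.24 to -0.15 for *Irf7* to *Irf3*, and from -0.062 to 0.08 for *Sting1* to *Cgas*, where a pseudocount of 1 reversed it to 0.014. Without both fl/fl replicate 5 and iADKO replicate 6, chosen after seeing the data, 7 members, 72 pathway genes and 7192 genes in all were called. *Cgas* was then at 0.49, *Zbp1* at 0.51, *Sting1* at 0.33 and *Ikbke* at 0.92. Over the whole 300-base window, 8.56% of promoters held the interferon core.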
